A study of Mus musculus with 9 samples.

Results

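Autophagy and mitophagy genes were examined in the transcriptome of neutrophils taken from 3 compartments of tumor-bearing mice. The members were the 40 genes of a named list of the machinery, found by gene name among the 46517 genes of the deposited log2 FPKM table, and each of the 40 had a row. The list was arranged by step into 5 genes of the ULK1 kinase complex, 6 of the class III PI3 kinase complex, 5 of membrane supply, 11 of the conjugation enzymes, 5 of the LC3 and GABARAP family, 5 cargo receptors and 3 mitophagy genes. C57BL/6 mice with orthotopic transplanted (OT) pancreatic tumors were used throughout, made by injecting 1242 L cells, a line derived from tumors of KPC mice, into the pancreas. All groups came from day 27 after transplantation and no sham mice are among them. Live CD45+ Lin- Ly6G+ Ly6C+ cells were sorted as Ly6G.hi neutrophils from the bone marrow, Ly6G+ neutrophils from the blood and Ly6G+ neutrophils from the tumor. There were 3 libraries for each compartment, each of them from pooled mice, so that a value is the average of a pool and p-values measure the spread between pools. The paper describes the compared neutrophils as coming from the same mouse. Sample titles do not say whether same-numbered libraries share a pool.

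Macroautophagy encloses cytoplasm in a double membrane and delivers it to lysosomes. A kinase complex and a lipid kinase complex start the membrane, lipid transfer proteins extend it, ubiquitin-like enzymes attach LC3 and GABARAP proteins to it, and receptors tether cargo to these proteins. Mitophagy is the branch that removes mitochondria. Autophagy genes have been studied in neutrophils for their part in differentiation in the bone marrow and in granule release.

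The deposited values came from 4580807 to 6830374 reads per blood library, 7108871 to 7949367 per bone marrow library and 5446499 to 6969557 per tumor library, as recovered from the table. Correlations of log2 FPKM between libraries were 0.875 to 0.933 within a compartment and 0.415 to 0.793 between compartments. Markers checked the sorted populations. Mature neutrophil genes summed to 11540 to 14530 RPM (reads scaled to a common library total) in tumor, 45060 to 48330 in blood and 52580 to 56070 in bone marrow. Immature neutrophil genes, those of late granule formation, summed to 3831 to 7537 in tumor, 1171 to 1562 in blood and 77330 to 87960 in bone marrow. In the order bone marrow, blood and tumor, the 12 tumor epithelium markers summed to 63.9 to 65.2, 49.9 to 245.9 and 2653 to 4982 RPM, with Cldn4 and Tff1 at 0 in bone marrow and Tff1 at 0 in blood. The 10 acinar markers gave 1.77 to 7.23, 3.04 to 10.7 and 771 to 2878 (Amy2a5 and Rbpjl at 0 in bone marrow and in blood), and the 10 fibroblast markers 55.9 to 72.8, 59.5 to 91.3 and 1182 to 1316 (Pdgfra at 0 in bone marrow, Lum and Pdgfrb at 0 in blood). The 7 platelet markers were highest in blood, at 862 to 1152 against 89.1 to 138.0 in bone marrow and 30.5 to 52.4 in tumor. The 10 macrophage markers were at 1498 to 1683 in blood against 455 to 502 in bone marrow and 409.5 to 586 in tumor, the 7 red cell markers at 292 to 605 against 35.3 to 82.5 and 11.3 to 142.0, and the 9 lymphocyte markers at 82.3 to 137 against 19.4 to 44.6 and 5.48 to 11.9 (Ms4a7 at 0 in blood, Klrb1c and Ncr1 at 0 in tumor). The 8 endothelial markers gave 18.4 to 28.1 in bone marrow, 103.4 to 154 in blood (Cdh5 and Tek at 0) and 141.3 to 162 in tumor. These levels move with the compartments compared below, and their part in the results was not tested. In such bulk samples fewer cells of a type and less RNA per cell cannot be told apart.

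The start regions of some members hold an E-box element. The letters CACGTG, the core of the E-box bound by the TFEB family of autophagy and lysosome regulators, were searched on both strands of RefSeq start regions (GRCm38.p6, 250 bases before to 50 after the start), which were found for 33 of the 40 members. They occurred in 4 of these 33 (12.1%) and in 8.09% of the 27025 genes with a start region. The 4 were Atg3, Atg5, Atg7 and Atg14, but the RefSeq start used for Atg7 lies 27999 bases and that for Atg14 2215 bases inside the GENCODE M21 gene, so those windows are not at the first base of the gene. Atg3 and Atg5 of the conjugation step, whose RefSeq starts lie within 50 bases of it, are shown because they hold the match and were lower in tumor than in either other compartment by the test given with each below. Capitals mark the match, and each sequence runs 5′ to 3′ on the strand of the gene.
Atg3, chr16:45158579-45158878, plus strand: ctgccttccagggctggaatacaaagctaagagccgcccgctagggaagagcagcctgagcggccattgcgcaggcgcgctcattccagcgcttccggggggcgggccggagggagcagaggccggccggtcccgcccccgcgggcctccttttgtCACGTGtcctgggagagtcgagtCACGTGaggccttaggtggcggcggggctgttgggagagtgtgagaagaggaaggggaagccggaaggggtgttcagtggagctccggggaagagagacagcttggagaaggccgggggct
Atg5, chr10:44268089-44268388, plus strand: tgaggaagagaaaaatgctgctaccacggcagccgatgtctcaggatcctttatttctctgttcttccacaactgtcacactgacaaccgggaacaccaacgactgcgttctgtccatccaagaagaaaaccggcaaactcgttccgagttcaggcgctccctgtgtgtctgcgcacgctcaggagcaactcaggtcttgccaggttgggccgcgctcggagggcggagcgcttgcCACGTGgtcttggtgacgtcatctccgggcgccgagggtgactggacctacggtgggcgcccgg
Atg3 carries the element at -94 and at -71 from its start and Atg5 at -14. The longer letters TCACGTGA were found only in Atg3 among the members and in 1.12% of all genes, overlapping the core match. TGTTTAC, a FOXO-type element, was found in 0 of 33 members and in 4.05% of all genes, and ACGTG, the core letters of the hypoxia response element, which every CACGTG also contains, in 15 of 33 members (45.5%) and in 21.8% of all genes. These are matches of letters and not sites of binding.

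A total of 28 members passed the filter for the test on log2 FPKM (values over 0 in at least 3 libraries), together with 7794 genes overall. Each comparison used limma with Benjamini-Hochberg adjustment over all genes tested and a threshold of 0.05, and differences below are log2 fold changes of log2 FPKM with their standard error. The other 12 were Ulk2, Pik3c3, Pik3r4, Atg14, Uvrag, Ambra1, Atg2b, Atg4a, Atg4c, Atg5, Atg10 and Park2. The length behind FPKM was the whole genomic span for most genes, which lowers FPKM where introns are long, and 11 of the 12 had at least 5 reads in some library. These were taken from limma-voom on the recovered reads, which tested 39 members among 17714 genes. Park2, which encodes the ubiquitin ligase Parkin, had 0 to 3 reads per library and was not tested. The filter leaves out genes whose log2 FPKM is low, among them genes with long introns such as Atg5 (251 to 430 reads), so counts over the 28 do not stand for the 40.

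**Figure D1:**
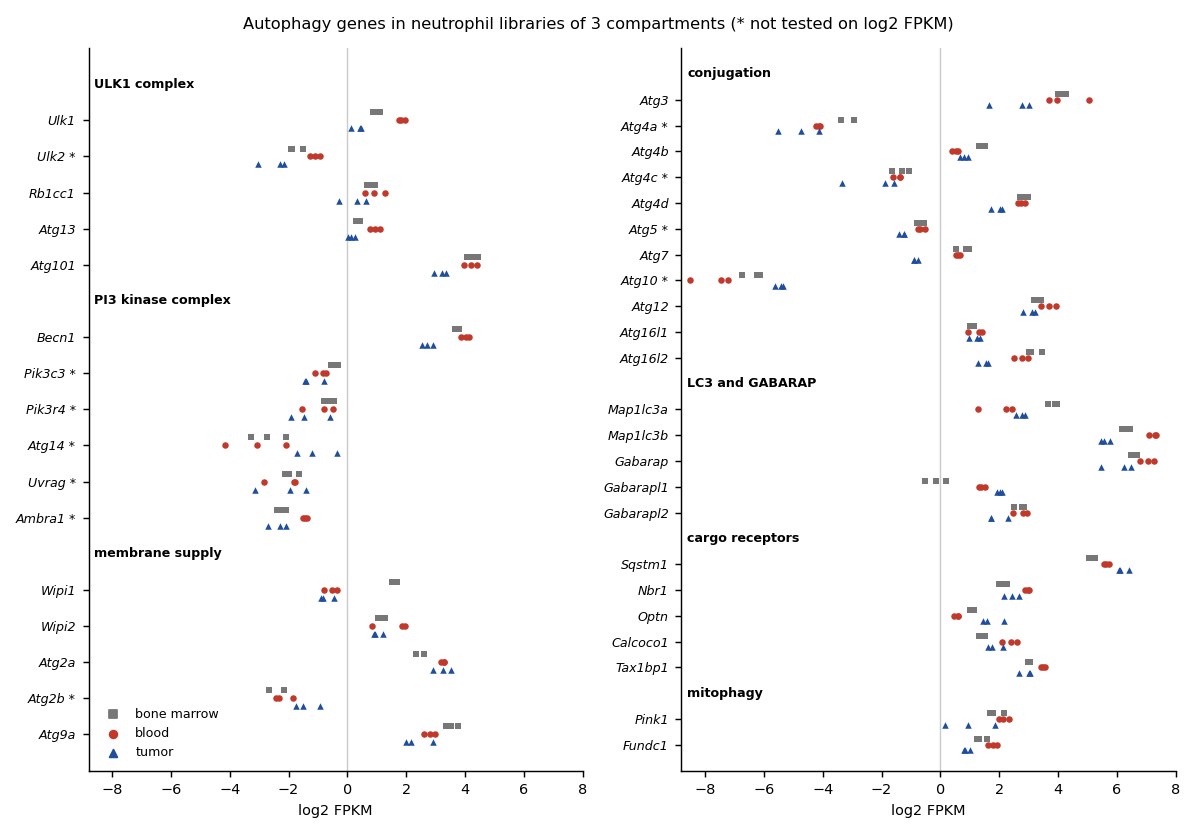
Log2 FPKM (horizontal axis) of 39 members in the 9 libraries, arranged by step (Park2, with at most 3 reads, is left out). Squares are bone marrow, circles blood and triangles tumor, 1 symbol per library, and an asterisk marks members not tested on log2 FPKM. Triangles lie left of the other symbols for Atg3, Atg7, Atg16l2 and Becn1, and right of them for Gabarapl1, Sqstm1 and Optn.

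Compared to blood, 17 of the 28 members were lower in tumor neutrophils and 4 were higher, where 34.5% of all genes tested were lower and 28.1% higher. The median difference of the members was -0.67 and that of all genes tested -0.17. Compared to bone marrow, 14 members were lower and 4 higher in tumor, against 32.9% and 22.4% of all genes tested, with medians of -0.59 and -0.21. Blood and bone marrow differed in the other direction, with 9 members higher and 4 lower in blood against 20.6% and 23.6% of all genes tested, and medians of 0.27 and -0.04. The tumor mean was the lowest of the 3 for 19 of 28 members (67.9%) and for 44.0% of all genes tested, and the blood mean was the highest for 17 members (60.7%) and for 34.6% of all genes. Platelet, macrophage, red cell and lymphocyte marker sums were also highest in blood, and their part in this order was not tested. The comparisons share libraries, so these counts are not independent of each other. The authors' scaling sets the centre of these splits. With plain library totals the median of all genes moved from -0.17 to 0.28 for tumor against blood and from -0.21 to 0.25 for tumor against bone marrow, and the members then gave 6 higher and 8 lower, and 8 higher and 8 lower, with medians of -0.22 and -0.14 that stayed below the median of all genes. Of the members lower than blood, 9 of 17 then lost the call (Atg13, Atg4d, Atg12, Gabarap, Gabarapl2, Nbr1, Calcoco1, Tax1bp1 and Pink1), as did 6 of 14 lower than bone marrow (Ulk1, Atg4b, Map1lc3a, Map1lc3b, Gabarapl2 and Fundc1), while 0 of the 4 higher members in either comparison did. By limma-voom 6 of 39 members were higher and 21 lower in tumor than in blood (33.1% and 21.9% of all genes tested), 6 higher and 21 lower than in bone marrow (29.3% and 21%), and 11 higher and 5 lower in blood than in bone marrow (13.8% and 16.4%). Counts under plain library totals, here and below, have no such share of all genes beside them.

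Passing both tumor comparisons in 1 direction were 10 members that were lower in tumor than in either other compartment (23.7% of all genes tested were) and 3 that were higher (16.5% were). The lower ones were Ulk1, Atg101, Becn1, Atg3, Atg4d, Atg7, Atg16l2, Map1lc3b, Gabarapl2 and Fundc1, which cover initiation, conjugation, the LC3 and GABARAP family and mitophagy. Gabarapl1, Sqstm1 and Optn were the higher ones, 1 of the LC3 and GABARAP family and 2 cargo receptors. With plain library totals Atg101, Becn1, Atg3, Atg7 and Atg16l2 stayed lower and the 3 higher members stayed higher, joined by Atg2a.

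**Figure D2:**
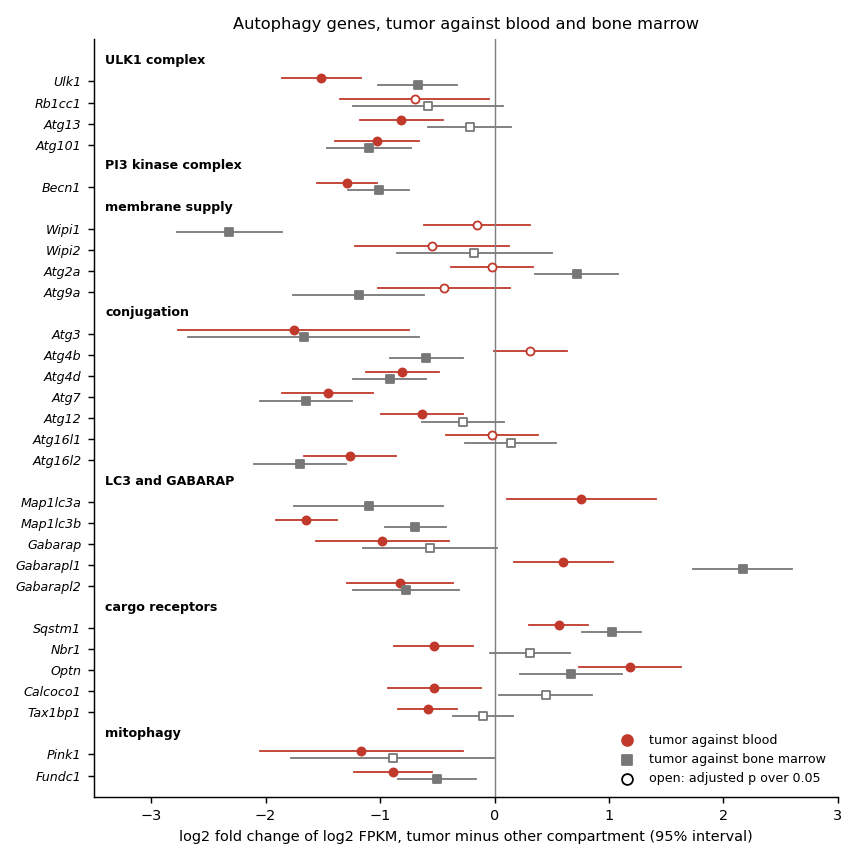
Log2 fold change (horizontal axis) of the 28 members tested, tumor against blood (circles) and against bone marrow (squares), with 95% intervals from limma and filled symbols for an adjusted p under 0.05. Most symbols lie left of 0 under the deposited scaling, while with plain library totals all shift right and only 5 members are lower in tumor than in both. Optn, Sqstm1 and Gabarapl1 lie right of 0 in both comparisons.

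In the initiation step the ULK1 kinase complex was lower in tumor for 3 of 4 members tested against blood and for 2 of 4 against bone marrow, and higher in none. Of all genes tested, 34.5% and 32.9% were lower in these comparisons. Under plain library totals 2 were lower than blood, 1 was lower than bone marrow and none was higher. Ulk1 encodes the kinase that starts autophagosome formation (chr5:110784488-110810097, minus strand, GRCm38). Ulk1 measured 1.02, 1.12 and 0.86 in bone marrow, 1.76, 1.81 and 1.95 in blood and 0.45, 0.11 and 0.43 in the tumor libraries (log2 FPKM). It was highest in blood and lowest in tumor with no overlap between compartments. The difference of Ulk1 was -1.51 ± 0.15 (adjusted p = 7.13e-05) against blood, and -0.67 ± 0.15 (adjusted p = 0.0057) against bone marrow, while blood exceeded bone marrow with a difference of 0.84 ± 0.15 (adjusted p = 0.00275). The second tumor difference was -0.22 and did not pass with plain library totals.

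Atg101 stabilises ATG13 within this complex. Libraries gave Atg101 log2 FPKM values of 4.26, 4.45 and 4.07 in bone marrow, 3.97, 4.40 and 4.20 in blood and 2.93, 3.22 and 3.34 in the tumor libraries. Tumor lay below all 6 other libraries, and blood and bone marrow overlapped. The differences were -1.03 ± 0.16 (adjusted p = 0.00077) against blood and -1.10 ± 0.16 (adjusted p = 0.000681) against bone marrow. Atg13 encodes the subunit that links the kinase to its scaffold. For Atg13, log2 FPKM was 0.29, 0.43 and 0.31 in bone marrow, 0.95, 1.12 and 0.76 in blood and 0.11, 0.24 and 0.03 in the tumor libraries. Blood stood above both others, and tumor was just below bone marrow. Its difference from blood was -0.82 ± 0.16 (adjusted p = 0.00233), or -0.37 (adjusted p = 0.0761) with plain library totals, while that from bone marrow, -0.22 ± 0.16 (adjusted p = 0.278), did not pass, and blood exceeded bone marrow with a difference of 0.60 ± 0.16 (adjusted p = 0.0162), a call lost without blood library 2 or bone marrow library 1 (highest adjusted p = 0.0583). Rb1cc1, the FIP200 scaffold, was called in no comparison, with -0.70 ± 0.28 against blood (adjusted p = 0.061), although limma-voom placed it lower in tumor than in blood (adjusted p = 0.0234). Ulk2, the paralogue of Ulk1, had 60 to 193 reads and by limma-voom was lower in tumor than in blood with a difference of -1.35 ± 0.25 (adjusted p = 0.000467) and than in bone marrow with a difference of -0.69 ± 0.26 (adjusted p = 0.0403).

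Of the class III PI3 kinase complex, which makes the lipid that marks the nascent membrane, only Becn1 passed the filter. Log2 FPKM of Becn1 came to 3.65, 3.79 and 3.75 in bone marrow, 3.86, 4.04 and 4.12 in blood and 2.71, 2.89 and 2.55 in the tumor libraries. Each tumor library was below each of the other 6. Becn1, which encodes the scaffold Beclin 1, differed by -1.29 ± 0.11 (adjusted p = 4.34e-05) from blood and -1.01 ± 0.11 (adjusted p = 0.000178) from bone marrow. Its exons overlap Cntd1 on the other strand in the annotation, and the library protocol keeps no strand, so reads there cannot be assigned to 1 gene. The same holds for parts of 13 members in all, the others being Rb1cc1, Atg14, Uvrag, Atg2b, Atg9a, Atg4d, Atg16l2, Map1lc3b, Gabarapl1, Sqstm1, Optn and Tax1bp1. Limma-voom gave the other 5. Atg14, which directs the complex to the site of autophagosome formation, had only 43, 16 and 27 reads in bone marrow, 6, 18 and 30 in blood and 52, 90 and 169 in the tumor libraries. It was higher in tumor than in blood with a difference of 1.98 ± 0.57 (adjusted p = 0.0087) and than in bone marrow with a difference of 1.61 ± 0.48 (adjusted p = 0.0124), the opposite direction to Becn1. A noncoding antisense gene overlaps its exons. Pik3c3, the lipid kinase itself, was lower in tumor than in bone marrow with a difference of -0.75 ± 0.20 (adjusted p = 0.00658) and Ambra1, a Beclin 1 regulator, lower in tumor than in blood with a difference of -0.91 ± 0.19 (adjusted p = 0.000936). Pik3r4, the regulatory subunit, and Uvrag, of the endosomal form of the complex, passed in no comparison, with adjusted p-values from 0.0937 to 0.954.

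Membrane supply had no member called between tumor and blood in the test on log2 FPKM, while 1 was higher and 2 lower in tumor than in bone marrow. These were among 4 members tested, where 22.4% of all genes tested were higher and 32.9% lower than bone marrow. Wipi1, a reader of the PI3 kinase lipid, had the largest differences of the step. The log2 FPKM values of Wipi1 were 1.5, 1.68 and 1.62 in bone marrow, -0.37, -0.52 and -0.80 in blood and -0.44, -0.82 and -0.88 in the tumor libraries. Bone marrow stood alone at the top, and blood and tumor overlapped. Wipi1 passed the filter only through bone marrow, since no blood or tumor value was over 0. Its libraries held 104 to 788 reads, and limma-voom, with another filter, put tumor and blood at -2.33 and -2.16 from bone marrow. Tumor was below bone marrow with a difference of -2.32 ± 0.20 (adjusted p = 4.42e-05) and blood with a difference of -2.16 ± 0.20 (adjusted p = 0.000136), and tumor against blood was -0.15 ± 0.20 (adjusted p = 0.526). Its paralogue Wipi2, the member that recruits ATG16L1, was called in none of the comparisons, with 1.29, 1.25 and 1.04 in bone marrow, 0.85, 1.97 and 1.87 in blood and 0.90, 1.22 and 0.94 in the tumor libraries. Without blood library 1, Wipi2 was lower in tumor than in blood (-0.90, adjusted p = 0.00286 by limma). Blood was then above bone marrow (0.73, adjusted p = 0.0123). Atg2a, a lipid transfer protein, was higher than bone marrow in tumor with a difference of 0.72 ± 0.16 (adjusted p = 0.00526) and in blood with a difference of 0.74 ± 0.16 (adjusted p = 0.00632). Atg2b, with 56 to 282 reads, was by limma-voom higher in tumor than in blood with a difference of 0.77 ± 0.29 (adjusted p = 0.0347) and than in bone marrow with a difference of 0.95 ± 0.28 (adjusted p = 0.0104). Its exons overlap Gskip on the other strand, and those of Atg9a overlap Ankzf1. Atg9a, the transmembrane protein of this step, was lower in tumor than in bone marrow with a difference of -1.19 ± 0.25 (adjusted p = 0.00437), and its lower level in blood than in bone marrow (-0.75 ± 0.25 (adjusted p = 0.0412)) lost its call in 9 of 15 alternatives.

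Of the 7 conjugation enzymes tested, tumor was lower than blood for 5 and lower than bone marrow for 5, where 34.5% and 32.9% of all genes tested were, and 0 were higher, while 1 was lower in blood than in bone marrow. With plain library totals 3 stayed lower and 1 was higher in tumor than in blood, and 4 were lower and 1 higher against bone marrow. Atg7 (chr6:114643097-114860614, plus strand, GRCm38) encodes the E1-like enzyme that activates both ATG12 and LC3. Atg7 measured 0.87, 0.96 and 0.53 in bone marrow, 0.66, 0.59 and 0.53 in blood and -0.91, -0.77 and -0.91 in the tumor libraries (log2 FPKM). The 3 tumor libraries lay more than 1 log2 unit below the others, which overlapped each other. The difference of Atg7 was -1.46 ± 0.17 (adjusted p = 0.00019) against blood and -1.65 ± 0.17 (adjusted p = 0.000125) against bone marrow. Atg7 passed the filter only through bone marrow and blood, since no tumor value was over 0. Its tumor libraries held 720 to 962 reads, and limma-voom, with another filter, gave -1.46 and -1.64. Corrected for exon length, Atg7 fell from 54.3 ± 8.14 RPM per exon kilobase in bone marrow and 47.2 ± 2.18 in blood to 17.2 ± 0.931 in tumor (SD, n = 3).

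Atg3 (chr16:45158785-45188538, plus strand, GRCm38) is the E2-like enzyme for LC3, and its start region holds 2 of the elements shown above. Libraries gave Atg3 log2 FPKM values of 4.21, 4.26 and 3.99 in bone marrow, 3.71, 3.95 and 5.06 in blood and 1.65, 3.02 and 2.78 in the tumor libraries. The tumor libraries were the lowest but spread widely, with tumor 1 far below the other two, and blood 3 was the highest of all. Differences were -1.76 ± 0.44 (adjusted p = 0.00833) against blood and -1.67 ± 0.44 (adjusted p = 0.0125) against bone marrow. Atg5, the partner of ATG12, had 251 to 430 reads and by limma-voom was lower in tumor than in blood with a difference of -0.62 ± 0.17 (adjusted p = 0.00591) and than in bone marrow with a difference of -0.59 ± 0.16 (adjusted p = 0.00728). Atg10, the E2-like enzyme for ATG12, had 3, 9 and 9 reads in blood, 27, 15 and 25 in bone marrow and 42, 44 and 56 in tumor. It was the exception of the step, higher in tumor than in blood with a difference of 2.16 ± 0.50 (adjusted p = 0.00207). Atg12 itself was lower in tumor than in blood with a difference of -0.63 ± 0.15 (adjusted p = 0.00765), which was -0.18 (adjusted p = 0.25) with plain library totals, and gave -0.28 ± 0.15 (adjusted p = 0.165) against bone marrow.

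Of the paralogues Atg16l1 and Atg16l2, only the latter was called between tumor and the other compartments on log2 FPKM. Atg16l1 encodes the protein that places the ATG12 and ATG5 conjugate on the membrane. For Atg16l1, log2 FPKM was 1.02, 1.15 and 0.99 in bone marrow, 1.41, 1.32 and 0.93 in blood and 1.36, 1.26 and 0.97 in the tumor libraries. All compartments overlapped, and the differences of tumor were -0.02 ± 0.17 (adjusted p = 0.918) against blood (95% interval -0.42 to 0.38) and 0.14 ± 0.17 (adjusted p = 0.521) against bone marrow (-0.26 to 0.54). The latter was 0.59 (adjusted p = 0.0174) with plain library totals. Its paralogue Atg16l2 was lower in tumor. Log2 FPKM of Atg16l2 came to 3.09, 3.46 and 3.0 in bone marrow, 2.5, 2.97 and 2.76 in blood and 1.60, 1.55 and 1.29 in the tumor libraries. The tumor libraries were all below the other 6, with differences of -1.26 ± 0.17 (adjusted p = 0.000393) against blood and -1.70 ± 0.17 (adjusted p = 0.000107) against bone marrow. The log2 ratio of Atg16l1 to Atg16l2 per exon kilobase was -0.75, -0.98 and -0.68 in bone marrow, 0.23, -0.34 and -0.51 in blood and 1.08, 1.03 and 1.00 in the tumor libraries. Thus tumor alone had more Atg16l1 than Atg16l2 per exon kilobase in every library, and its ratios did not overlap those of the other compartments. The sign of the ratio can depend on the exon lengths used, but its differences between compartments do not. Exons of Atg16l2 overlap Fchsd2 on the other strand.

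The ATG4 proteases trim LC3 before conjugation and release it afterwards. Atg4b, the main one, was highest in bone marrow. The log2 FPKM values of Atg4b were 1.42, 1.5 and 1.30 in bone marrow, 0.38, 0.58 and 0.53 in blood and 0.67, 0.81 and 0.95 in the tumor libraries. It was lower than bone marrow in tumor with a difference of -0.60 ± 0.14 (adjusted p = 0.00723) and in blood with a difference of -0.91 ± 0.14 (adjusted p = 0.00141), while tumor against blood was 0.31 ± 0.14 (adjusted p = 0.0806). Tumor was not called against bone marrow (-0.14, adjusted p = 0.452) and was above blood (0.76, adjusted p = 0.00266) with plain library totals. Atg4d was lower in tumor with a difference of -0.81 ± 0.14 (adjusted p = 0.00129) against blood and -0.92 ± 0.14 (adjusted p = 0.000823) against bone marrow. Atg4d measured 2.69, 2.91 and 2.99 in bone marrow, 2.63, 2.89 and 2.74 in blood and 2.11, 1.72 and 2.02 in the tumor libraries (log2 FPKM). No tumor library reached the others, but with plain library totals the difference from blood was -0.36 (adjusted p = 0.0801) and not called. Its exons overlap Kri1 on the other strand. Atg4a had 36 to 183 reads. Libraries gave Atg4a log2 FPKM values of -2.92, -3.39 and -3.38 in bone marrow, -4.21, -4.11 and -4.11 in blood and -4.74, -4.13 and -5.50 in the tumor libraries. By limma-voom it was lower in tumor than in bone marrow with a difference of -1.58 ± 0.32 (adjusted p = 0.000911) and lower in blood than in bone marrow with a difference of -0.91 ± 0.32 (adjusted p = 0.0426), and Atg4c was lower in tumor than in bone marrow with a difference of -0.97 ± 0.36 (adjusted p = 0.0356). The log2 ratio of Atg4a to Atg4b was -0.29, -0.85 and -0.64 in bone marrow, -0.55, -0.65 and -0.61 in blood and -1.37, -0.91 and -2.42 in the tumor libraries. All tumor ratios were below the others, with a wide spread. An Atg4a copy, Atg4a-ps, is annotated elsewhere and could share reads with Atg4a.

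In the LC3 and GABARAP family 2 members were higher and 3 lower in tumor than in blood, and 1 was higher and 3 lower than in bone marrow. Of all genes tested, 28.1% were higher and 34.5% lower than blood, and 22.4% and 32.9% than bone marrow. The family counts became 2 higher and 1 lower, and 1 higher and 0 lower, with plain library totals. Map1lc3b (chr8:121590361-121598760, plus strand, GRCm38) encodes LC3B, the common marker of autophagosomes. For Map1lc3b, log2 FPKM was 6.25, 6.44 and 6.18 in bone marrow, 7.10, 7.32 and 7.31 in blood and 5.46, 5.56 and 5.77 in the tumor libraries. Blood was the highest and tumor the lowest with no overlap. The difference of Map1lc3b was -1.64 ± 0.12 (adjusted p = 1.48e-05) against blood, -0.69 ± 0.12 (adjusted p = 0.00141) against bone marrow, and 0.95 ± 0.12 (adjusted p = 0.000467) for blood against bone marrow. With plain library totals the difference from bone marrow became -0.24 and did not pass, and its exons overlap Zcchc14 on the other strand.

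Gabarapl1 (chr6:129533160-129542346, plus strand, GRCm38) went the other way. Log2 FPKM of Gabarapl1 came to -0.51, -0.14 and 0.18 in bone marrow, 1.39, 1.53 and 1.31 in blood and 1.92, 2.02 and 2.10 in the tumor libraries. The 3 compartments were fully separated, with bone marrow lowest and tumor highest. Tumor exceeded bone marrow with a difference of 2.17 ± 0.19 (adjusted p = 4.51e-05) and blood with a difference of 0.60 ± 0.19 (adjusted p = 0.0224), and blood exceeded bone marrow with a difference of 1.57 ± 0.19 (adjusted p = 0.000439). The call against blood was lost without blood library 1 or 3 or tumor library 2 or 3, with differences of 0.55 to 0.60 and adjusted p-values up to 0.0676. Tumor libraries held 216 to 313 reads of the gene, blood libraries 95 to 148 and bone marrow libraries 43 to 69. A noncoding transcript overlaps its exons on the other strand.

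Map1lc3a, which encodes LC3A, was highest in bone marrow. The log2 FPKM values of Map1lc3a were 3.98, 3.89 and 3.65 in bone marrow, 1.29, 2.22 and 2.44 in blood and 2.56, 2.89 and 2.77 in the tumor libraries. Tumor lay between the others. It was below bone marrow with a difference of -1.10 ± 0.28 (adjusted p = 0.0111), or -0.65 (adjusted p = 0.0684) with plain library totals, and above blood with a difference of 0.76 ± 0.28 (adjusted p = 0.0447), while blood was below bone marrow with a difference of -1.86 ± 0.28 (adjusted p = 0.00136). The tumor and blood difference rested on 17 to 46 reads in blood and lost its call in 12 of 15 alternatives. Gabarapl2 was lower in tumor with a difference of -0.82 ± 0.20 (adjusted p = 0.00748) against blood and -0.78 ± 0.20 (adjusted p = 0.0115) against bone marrow. Gabarapl2 measured 2.83, 2.78 and 2.49 in bone marrow, 2.94, 2.8 and 2.48 in blood and 2.30, 1.72 and 1.73 in the tumor libraries (log2 FPKM). Blood and bone marrow overlapped, and tumor was below both. Neither difference of Gabarapl2 passed with plain library totals, at -0.37 (adjusted p = 0.132) and -0.33 (adjusted p = 0.195). Gabarap was lower in tumor than in blood with a difference of -0.98 ± 0.25 (adjusted p = 0.00981), or -0.53 (adjusted p = 0.0695) with plain library totals. Libraries gave Gabarap log2 FPKM values of 6.67, 6.69 and 6.48 in bone marrow, 7.25, 7.04 and 6.80 in blood and 6.47, 6.23 and 5.45 in the tumor libraries. Tumor was the lowest, with tumor 3 below the other tumor libraries, and against bone marrow the difference was -0.57 ± 0.25 (adjusted p = 0.0908).

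Expressed as a share of the reads of the 5 family members per exon kilobase, Gabarap held the largest part with 57.6% ± 0.583 in bone marrow, 54.5% ± 4.8 in blood and 56.7% ± 10.0 in the tumor libraries (SD, n = 3). Map1lc3b followed with 24.8% ± 1.18, 34.3% ± 4.78 and 22.8% ± 6.91. Gabarapl1 accounted for 1.20% ± 0.373, 2.45% ± 0.160 and 7.70% ± 1.93, and the 3 tumor shares of 6.06%, 7.21% and 9.82% were above all 6 others, which reached 2.59% at most. Shares are within a library and do not depend on the scaling. The Gabarap to Gabarapl1 log2 ratio was 6.04, 5.69 and 5.16 in bone marrow, 4.72, 4.37 and 4.34 in blood and 3.40, 3.07 and 2.20 in the tumor libraries. It was highest in bone marrow and lowest in tumor without overlap. For Map1lc3a to Map1lc3b the ratio was -1.84, -2.12 and -2.10 in bone marrow, -5.39, -4.67 and -4.44 in blood and -2.47, -2.25 and -2.57 in the tumor libraries, lowest in blood. Of 12 pairs of members compared, tumor ratios overlapped neither other compartment in 6, and those 6 are the ones given, so their separation is a description. With 3 against 3 libraries the smallest p of an exact two-sided permutation test is 0.1, so no ratio can pass 0.05 here.

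**Figure D3:**
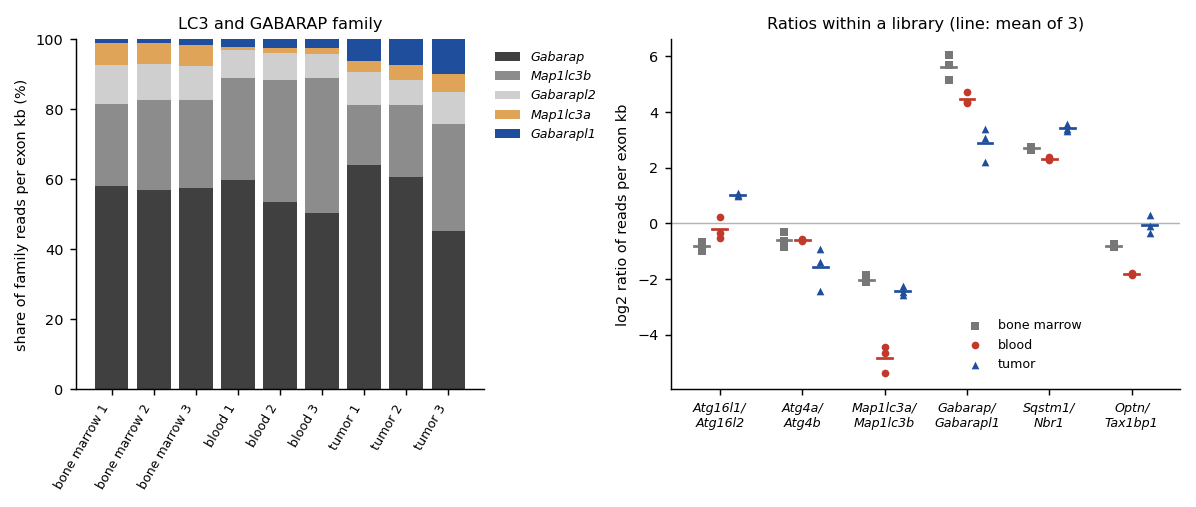
Left, share of each gene in the reads per exon kilobase of the LC3 and GABARAP family (percent, vertical axis) for the 9 libraries. Right, log2 ratios of reads per exon kilobase within a library for the 6 of 12 gene pairs chosen because tumor stood apart, where squares are bone marrow, circles blood, triangles tumor and lines the mean of 3 libraries. The share of Gabarapl1 lies between 6.06% and 9.82% in tumor, against at most 2.59% in the other libraries.

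Cargo receptors divided into 2 higher and 3 lower members in tumor than in blood, and 2 higher and 0 lower than in bone marrow, beside 28.1% and 34.5%, and 22.4% and 32.9%, of all genes tested. Under plain library totals 2 were higher and 0 lower than blood, and all 5 exceeded bone marrow. The medians of the 5 were then -0.08 and 0.90, and those of all genes tested 0.28 and 0.25. Sqstm1 (chr11:50199366-50210827, minus strand, GRCm38) encodes p62, which binds ubiquitin and LC3 and is itself degraded with its cargo. For Sqstm1, log2 FPKM was 5.20, 5.25 and 5.06 in bone marrow, 5.56, 5.73 and 5.62 in blood and 6.12, 6.41 and 6.06 in the tumor libraries. Its levels rose from bone marrow to blood to tumor with no overlap. The difference of Sqstm1 was 0.56 ± 0.11 (adjusted p = 0.00281) against blood, 1.03 ± 0.11 (adjusted p = 0.000152) against bone marrow, and 0.47 ± 0.11 (adjusted p = 0.0112) for blood against bone marrow. RPM per exon kilobase of Sqstm1 were 123.2 ± 8.53 in bone marrow, 170.1 ± 10.1 in blood and 252.0 ± 34.1 in the tumor libraries. Sqstm1 held 20.3% to 21.9% of the reads of all 40 members in tumor and 8.03% to 9.49% in the other 6 libraries. It was the highest member per exon length in tumor, whereas Gabarap was in bone marrow and blood. By reads not divided by length Sqstm1 was still the highest in tumor, and Map1lc3b was in bone marrow and blood. Exons of Sqstm1 overlap Mrnip on the other strand.

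Nbr1, a receptor with a domain layout like that of p62, did not share this order. Log2 FPKM of Nbr1 came to 2.10, 2.27 and 1.98 in bone marrow, 2.89, 3.01 and 2.98 in blood and 2.45, 2.69 and 2.15 in the tumor libraries. Blood was the highest, and tumor overlapped bone marrow. Tumor was below blood with a difference of -0.53 ± 0.15 (adjusted p = 0.0149), a difference that shrank to -0.08 with plain library totals, and blood was above bone marrow with a difference of 0.84 ± 0.15 (adjusted p = 0.00295). The Sqstm1 to Nbr1 log2 ratio was 2.75, 2.63 and 2.74 in bone marrow, 2.33, 2.38 and 2.29 in blood and 3.33, 3.38 and 3.57 in the tumor libraries. All tumor ratios were above the rest.

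Optn (chr2:5020642-5064051, minus strand, GRCm38) encodes optineurin, which links ubiquitinated mitochondria and bacteria to LC3. The log2 FPKM values of Optn were 1.01, 1.08 and 1.13 in bone marrow, 0.47, 0.61 and 0.59 in blood and 1.59, 2.17 and 1.46 in the tumor libraries. Blood was the lowest and tumor the highest, without overlap, and tumor 2 stood above the other tumor libraries. The difference of Optn was 1.18 ± 0.19 (adjusted p = 0.000989) against blood and 0.67 ± 0.19 (adjusted p = 0.0189) against bone marrow, the latter not passing without bone marrow library 1 (0.64, adjusted p = 0.0575). An antisense gene overlaps its exons. Without tumor library 2 the second difference was 0.45 and still passed. Tax1bp1, a receptor of the same ubiquitin-binding kind, was highest in blood. Tax1bp1 measured 2.97, 3.06 and 3.0 in bone marrow, 3.43, 3.50 and 3.56 in blood and 3.06, 3.0 and 2.67 in the tumor libraries (log2 FPKM). Tumor was lower than blood with a difference of -0.59 ± 0.11 (adjusted p = 0.00238), or -0.14 (adjusted p = 0.25) with plain library totals, and overlapped bone marrow, with -0.10 ± 0.11 (adjusted p = 0.477), which turned to 0.35 (adjusted p = 0.0153) with plain library totals. Blood exceeded bone marrow with a difference of 0.48 ± 0.11 (adjusted p = 0.00996). The Optn to Tax1bp1 log2 ratio was -0.84, -0.86 and -0.75 in bone marrow, -1.83, -1.77 and -1.84 in blood and -0.34, 0.29 and -0.10 in the tumor libraries, so tumor had nearly as much Optn as Tax1bp1 per exon length where the other compartments had less. Calcoco1, a receptor for endoplasmic reticulum, had its highest mean in blood, as Nbr1 and Tax1bp1 did. Libraries gave Calcoco1 log2 FPKM values of 1.33, 1.52 and 1.33 in bone marrow, 2.10, 2.59 and 2.40 in blood and 1.63, 1.76 and 2.12 in the tumor libraries. Blood lay above bone marrow with a difference of 0.97 ± 0.17 (adjusted p = 0.00307). Tumor overlapped blood, from which it differed by -0.53 ± 0.17 (adjusted p = 0.0298), a call that changed in 6 of 15 alternatives and became -0.08 with plain library totals. Unlike Nbr1 and Tax1bp1, Calcoco1 in tumor did not overlap bone marrow. That difference was 0.45 ± 0.17 (adjusted p = 0.061) and passed in 3 of 15 alternatives.

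**Figure D4:**
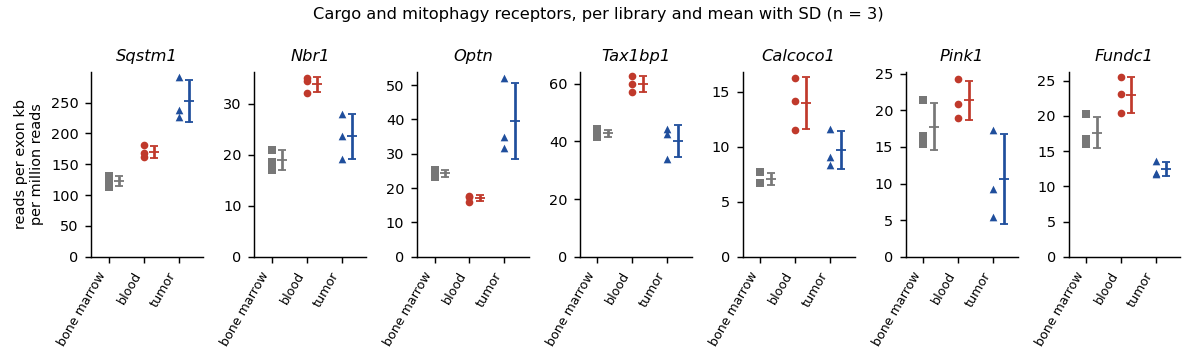
RPM per exon kilobase (vertical axis, linear, from 0 for each gene) of the 5 cargo receptors and 2 mitophagy genes in each library, with the mean and SD of 3 to the right of the points. Sqstm1 and Optn are highest in tumor, where Sqstm1 averages 252.0 against 170.1 in blood, while Nbr1, Tax1bp1, Calcoco1, Pink1 and Fundc1 are highest in blood. The deposited scaling is used here, and plain library totals would place tumor higher.

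Tumor was lower than blood for both mitophagy genes tested, and for Fundc1 alone with plain library totals. Under the deposited scaling 34.5% of all genes tested were lower than blood. Fundc1, a receptor in the outer mitochondrial membrane, was lower with a difference of -0.89 ± 0.15 (adjusted p = 0.00108) against blood and -0.50 ± 0.15 (adjusted p = 0.0202) against bone marrow. For Fundc1, log2 FPKM was 1.25, 1.59 and 1.33 in bone marrow, 1.93, 1.61 and 1.79 in blood and 0.82, 1.02 and 0.83 in the tumor libraries. Tumor lay below both, though the difference from bone marrow was -0.05 with plain library totals and lost its call without bone marrow library 2 (-0.40) or tumor library 1 (-0.46). Pink1, the kinase that accumulates on damaged mitochondria, was lower in tumor than in blood with a difference of -1.16 ± 0.38 (adjusted p = 0.0289). Log2 FPKM of Pink1 came to 2.15, 1.78 and 1.67 in bone marrow, 2.12, 1.98 and 2.33 in blood and 0.16, 0.93 and 1.84 in the tumor libraries. The tumor libraries spread over more than 1 log2 unit, and the call was lost without any 1 of the blood libraries (-1.07 to -1.25), without tumor library 1 (-0.75) or 2 (-1.14), and with plain library totals (-0.72, adjusted p = 0.156). Against bone marrow the difference was -0.89 ± 0.38 (adjusted p = 0.0822). Tumor 3, the tumor library with the highest Pink1, also had the highest sums of tumor epithelium (4982 RPM) and acinar markers (2878), and their part was not tested.

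The 3 members higher in tumor were set beside the same marker sums. Epithelium sums were 3403, 2653 and 4982 RPM in tumor libraries 1 to 3, acinar sums 1078, 771 and 2878, and fibroblast sums 1182, 1277 and 1316. Tumor 3, with the highest of each, had the lowest Sqstm1 (6.06) and Optn (1.46) of the tumor libraries and the highest Gabarapl1 (2.10), all in log2 FPKM. The part of these cells in the 3 members was not tested.

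Beside the machinery, 3 fixed lists of related genes were read with the same test. Of 36 regulators, 24 were tested, with 5 higher and 10 lower in tumor than in blood, 6 higher and 9 lower than in bone marrow, and 7 higher and 3 lower in blood than in bone marrow. The regulators gave, under plain library totals, 9 higher and 7 lower, and 10 higher and 7 lower, in the tumor comparisons. Of all genes tested, 28.1% were higher and 34.5% lower in tumor than in blood, and 22.4% and 32.9% than in bone marrow. In blood 20.6% were higher and 23.6% lower than in bone marrow. Among regulators tested on log2 FPKM the largest called change in both tumor comparisons was that of Ddit4, which encodes the MTORC1 inhibitor REDD1, with 3.16 ± 0.38 (adjusted p = 0.000208) and 2.92 ± 0.38 (adjusted p = 0.000389). Ddit4 had 9, 33 and 18 reads in blood, 29, 25 and 30 in bone marrow and 131, 330 and 328 in the tumor libraries. Deptor, which encodes another MTOR inhibitor and was named after its values were seen, did not pass that filter and gave 3.94 ± 0.66 (adjusted p = 0.000191) and 4.20 ± 0.63 (adjusted p = 7.87e-05) by limma-voom. It had 10 to 39 reads in blood and bone marrow libraries and 424, 341 and 1084 in tumor libraries 1 to 3. Its RPM per exon kilobase there (7.70, 5.08 and 15.4) ranked as the epithelium and acinar sums did, and the part of those cells was not tested. Mlst8, a subunit of the MTOR complexes, was lower in blood than in bone marrow with a difference of -5.35 ± 0.34 (adjusted p = 2.7e-05). Mlst8 had 11, 7 and 13 reads in blood and 538, 550 and 590 in bone marrow. No blood value was over 0, so the size of this difference rests on low counts. Of 16 genes of autophagosome fusion with lysosomes, 13 were tested, with 2 higher and 6 lower, 2 higher and 5 lower, and 3 higher and 1 lower in the same 3 comparisons. Vamp8, a SNARE, was lower in tumor than in blood with a difference of -1.59 ± 0.17 (adjusted p = 0.000112), Plekhm1, a fusion adaptor, lower in tumor than in bone marrow with a difference of -1.01 ± 0.17 (adjusted p = 0.00154), and Snap29, another SNARE of the same complex, higher in blood than in bone marrow with a difference of 1.31 ± 0.15 (adjusted p = 0.000374). With plain library totals the fusion list gave 5 higher and 4 lower, and 6 higher and 2 lower, in tumor against blood and bone marrow.

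Other selective receptors showed 2 higher and 2 lower in tumor than in blood among 12 tested of 18, 2 higher and 5 lower than in bone marrow, and 2 higher and 3 lower in blood than in bone marrow. The shares of all genes tested given with the regulators apply here too. Rescaled to plain library totals they gave 9 higher and 2 lower, and 5 higher and 3 lower, in the tumor comparisons, so the balance of calls depended on the scaling in each of the 3 lists. Ccpg1, a receptor of the endoplasmic reticulum, was the most changed against blood, lower with a difference of -4.33 ± 0.37 (adjusted p = 3.59e-05), and its difference from bone marrow was -3.15 ± 0.37 (adjusted p = 0.000217). Bnip3, a mitophagy receptor known as a hypoxia target, was read beside Fundc1. The log2 FPKM values of Bnip3 were 1.42, 1.60 and 1.57 in bone marrow, 3.29, 3.64 and 3.45 in blood and 5.06, 5.59 and 4.82 in the tumor libraries. The compartments were fully separated and rose from bone marrow over blood to tumor. Bnip3 was higher in tumor with a difference of 1.70 ± 0.19 (adjusted p = 0.000163) against blood and 3.63 ± 0.19 (adjusted p = 5.18e-06) against bone marrow. Its paralogue Bnip3l was not called, with -0.07 ± 0.17 (adjusted p = 0.729) and -0.07 ± 0.17 (adjusted p = 0.765). Bnip3l measured 3.62, 3.74 and 3.69 in bone marrow, 3.67, 3.79 and 3.62 in blood and 3.60, 4.01 and 3.25 in the tumor libraries (log2 FPKM). Ncoa4, the ferritin receptor, was lower in blood than in bone marrow with a difference of -1.97 ± 0.11 (adjusted p = 1.98e-05).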

How the data were processed

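The 9 libraries were made from total RNA of sorted neutrophils with the SMARTSeq v2 protocol and sequenced on an Illumina HiSeq instrument. The authors mapped reads with STAR 2.5.2b to GRCm38 and counted them on GENCODE M7 genes with featureCounts 1.5.0 (edgeR 3.8.6 is also listed in the submitters' processing notes), and they deposited log2 FPKM values with scaled library totals and 0.25 reads added before the log2. Whole reads were recovered from these values for 46517 of 46517 genes (tolerance 0.01 reads). The length used equalled the genomic span for 38873 of the 46005 identifiers found in GENCODE M21 (84.5%). Levels were therefore compared between genes as RPM per exon kilobase, with the authors' scaled library totals. The study tested with limma-voom. Here limma 3.58.1 (R 4.3.3; lmFit, eBayes with trend) was run on log2 FPKM, keeping genes with values above 0 in 3 or more libraries, all 9 libraries in 1 fit, with Benjamini-Hochberg adjustment over 7794 genes. Alternatives were limma-voom (at least 5 reads in any library), no filter, a pseudocount of 1 FPKM, plain library totals, median centring, a replicate block and each library left out. Both steps were tested on simulated data. The p-values cover the spread between pools, and read counts without molecular identifiers cover counting error only. Members and lists were chosen with earlier results of these data known. Values in every library were given for members called in both tumor comparisons or in opposite directions, for the largest called change of each step, and for pairs whose tumor ratios stood apart. Related genes were named by the largest called change of each list and comparison, with Bnip3 and Bnip3l added for their role. Sequences are from RefSeq, GRCm38.p6, and coordinates of genes from GENCODE M21 on GRCm38.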

Additional observations from a re-analysis of the deposited data

How the results depend on the processing

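Scaled to plain library totals, 8 members were lower and 6 higher in tumor than in blood (medians -0.22 in place of -0.67), 8 lower and 8 higher than in bone marrow (-0.14 in place of -0.59), and 5 lower than both. Atg2a turned from -0.02 to 0.43 in tumor against blood and Tax1bp1 from -0.10 to 0.35 in tumor against bone marrow. A pseudocount of 1 FPKM gave medians of -0.50 and -0.41 in the 2 tumor comparisons and changed no call of a member. Limma-voom, which tested 39 members, gave 5 higher and 14 lower in tumor than in both. The shares of all genes in both are not given. They can be at most 29.3% higher and 21% lower, the limma-voom shares against bone marrow alone. Leaving out each library in turn gave 2 to 3 members higher in tumor than in blood (4 with all libraries), the lower count without blood library 1 or tumor library 2 or 3. Members higher in tumor than in both were 2 to 3 and members lower than both 9 to 11. With a block for the replicate number, 3 members were higher and 11 lower in tumor than in both. Correlations of same-numbered libraries around their compartment means were -0.07 to 0.11, which cannot show whether their pools were shared. Ratios of log2 FPKM and of reads per exon kilobase differed by at most 0.006. Counts as low as 3 reads limit Atg10 and 6 limit Atg14, and Park2 had at most 3.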
